A study of Mus musculus with 16 samples.

Results

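The kinesin motor family was followed here as every gene in the deposited expression tables whose symbol has the form Kif or Kifc with a number and, optionally, a letter. That rule found 42 genes, each present once, among 22293 genes with a unique symbol. Cenpe, which encodes the kinetochore kinesin CENP-E, has no such symbol and is given as a companion gene. RNA had been sequenced from 16 libraries of male mice of mixed C57 and ICR strain, either wildtype or with miR-202, a microRNA, knocked out. Spermatogonia had been isolated from pups of 6 to 7 days post partum (dpp; 2 wildtype and 2 knockout libraries). Spermatocytes had been isolated from adults (3 and 3), and spermatogonial stem cells had been grown in culture with the growth factors GDNF and bFGF from cells of pups of 6 to 7 dpp (3 and 3). The labels do not say how the cells were purified, which cells carry the deletion or whether replicates came from separate animals or cultures. P-values therefore measure only the spread between these libraries, which may be technical.

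Kinesins are motor proteins that spend ATP to walk along microtubules or to take their ends apart. Some build the spindle and split the cell at division, some haul vesicles and organelles through the cytoplasm, and some carry cargo up the cilium or flagellum. Male germ cells use all of these in turn: spermatogonia divide by mitosis, spermatocytes divide by meiosis, and spermatids then build a manchette of microtubules around the nucleus and a flagellum.

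Levels are given in FPKM, a read density corrected for transcript length and for the size of the library, so they can be compared between genes. Over all genes they added up to 260739 to 392100 in a library, and no depth was recorded. Mir202 was listed at 0 in all 16 libraries, so these values do not check the knockout. The 10 markers of undifferentiated spermatogonia summed to 113 to 141 in spermatogonia and 382 to 463 in the cultures, and the 10 spermatocyte markers to 5734 to 6395 in spermatocytes. Other cells were represented too. The 9 Sertoli cell markers in the files summed to 465 to 838 in spermatogonia, the 5 macrophage markers to 90.7 to 175 in the cultures, and the 8 spermatid markers to 1375 to 4831 in spermatocytes. Spermatid markers also reached 90.6 in 1 spermatogonia library, knockout replicate 2, against 6.67 to 9.57 in the other three.

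In wildtype spermatogonia, 35 of the 42 kinesins had a mean FPKM of at least 1, against 30 in wildtype spermatocytes and 38 in wildtype cultures. Kif12 stayed under 1 in all 16 libraries. The FPKM of the whole family summed to 428 ± 10.4 (SD, n = 2) in wildtype spermatogonia, 683 ± 39.6 (SD, n = 3) in spermatocytes and 483 ± 18.2 (SD, n = 3) in cultures. The sum was highest in spermatocytes, and these 3 groups did not overlap.

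The leading kinesins differed by cell type. In wildtype spermatogonia the 8 highest were Kif5b, Kif23, Kif20a, Kifc1, Kif22, Kif2c, Kif11 and Kif1c, at means from 40.1 down to 19.1 FPKM. All of these but the cargo motors Kif5b and Kif1c act in cell division. Neighbours in that order were often closer than their spread: Kif5b read 48.0 and 32.1 in the 2 libraries, on both sides of Kif23 at 39.1 and 34.7. In wildtype cultures the order began with Kif20a, Kif22, Kif2c, Kif2a, Kif1c, Kif11, Kifc1 and Kif23, at means from 50.9 down to 23.9 FPKM. In wildtype spermatocytes it began with Kif9, Kif2a, Kif3b, Kif20a, Kif2b, Kif2c, Kif27 and Kif3a. There Kif9 alone, at 140.1 ± 7.90 FPKM (SD, n = 3), made up 20.5% of the family's sum, above Kif2a at 80.3 ± 3.81 (SD, n = 3) by more than the spread of either.

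**Figure D1:**
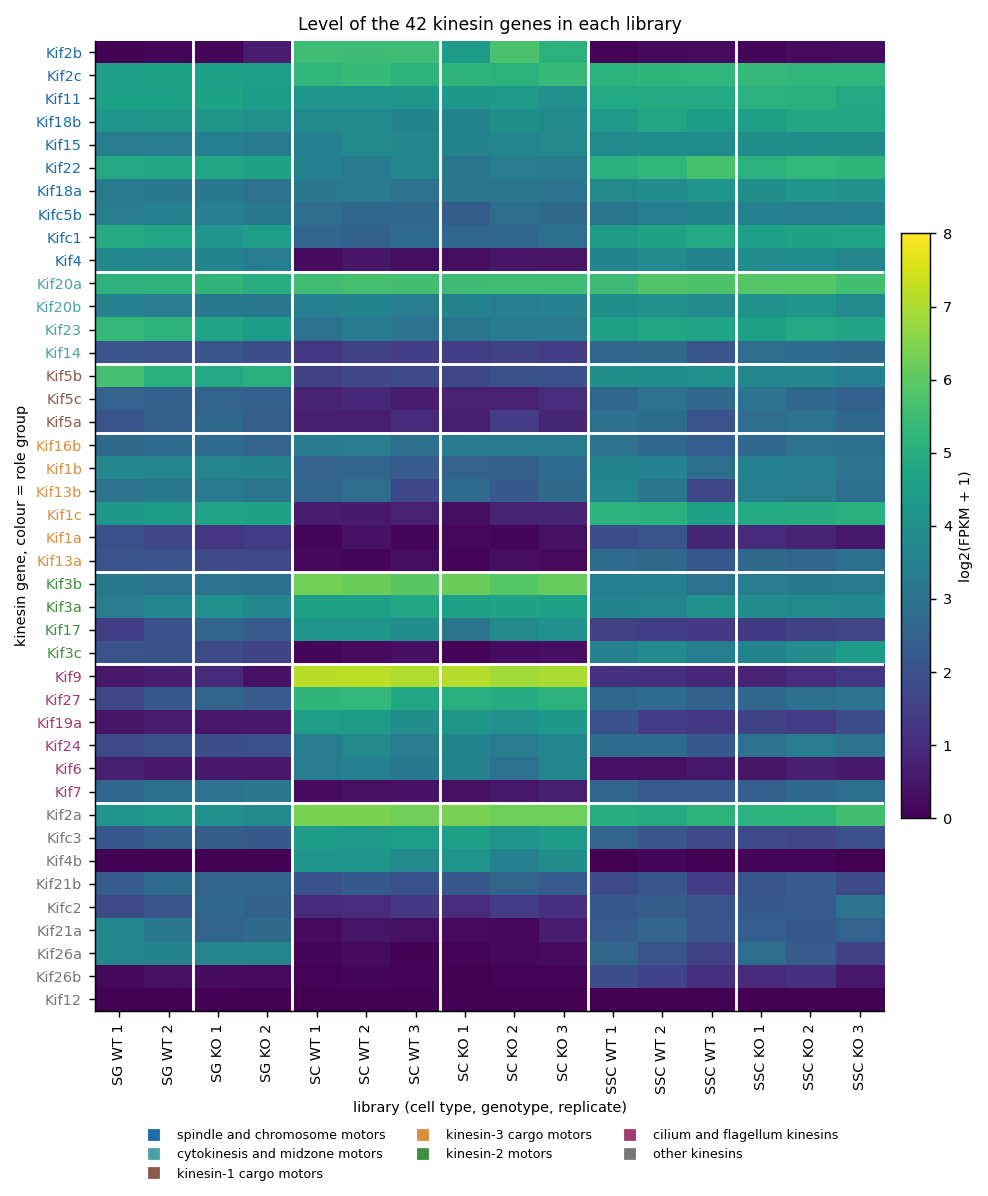
Heat map of log2(FPKM + 1) for the 42 kinesin genes (rows, grouped and coloured by role) in the 16 libraries (columns; SG spermatogonia, SC spermatocytes, SSC cultured stem cells; WT wildtype, KO knockout). The 6 spermatocyte columns differ from the other 10, with Kif9 brightest there, while wildtype and knockout columns of 1 cell type look alike.

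The first comparison asked which kinesins differ between spermatocytes and spermatogonia. Differences are log2 differences of FPKM + 1, which understate the change of low genes. They were tested with limma, with p-values adjusted over all genes tested, and a gene is called here at an adjusted p under 0.05. A gene was tested if it reached an FPKM of 1 in 2 libraries of either cell type. Kif9, Kif19a, Kif6, Kif2b and Kif4b did so only in spermatocytes. Kif1a, Kif1c, Kif3c, Kif4, Kif5a, Kif5c, Kif7, Kif13a, Kif21a and Kif26a did so only in spermatogonia. These genes entered the test through the cell type in which they were high. Their p-values below, and their part in the counts, are therefore description only. Of 40 kinesins tested in wildtype libraries, 16 were higher in spermatocytes and 20 were lower, where 33.8% of all genes tested were higher and 55.2% lower. Since most genes were called, the lack of overlap given below for some kinesins does not set them apart. Its share over all genes was not counted. The median difference was -0.47 over the kinesins and -0.73 over all genes. In bulk RNA, fewer cells of a type and less RNA per cell cannot be told apart. The shift over all genes depended on how libraries were scaled. Its median became -0.37 with quantile normalization and 0.092 with median-ratio scaling, and the kinesin counts became 19 higher and 16 lower, and 20 higher and 14 lower. Over all genes the counts went from 4671 higher and 7619 lower to 5312 and 6813 with quantile normalization, and to 6291 and 5972 with median-ratio scaling. Of the 36 kinesin calls, 31 and 30 were kept. The named kinesins called in this comparison kept their direction under both other scalings, except where a change is given below.

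The knockout libraries gave 17 higher (34.3% of all genes) and 20 lower (53.9%). All 16 kinesins higher in wildtype spermatocytes were among the 17, and the 20 lower ones were the same genes.

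**Figure D2:**
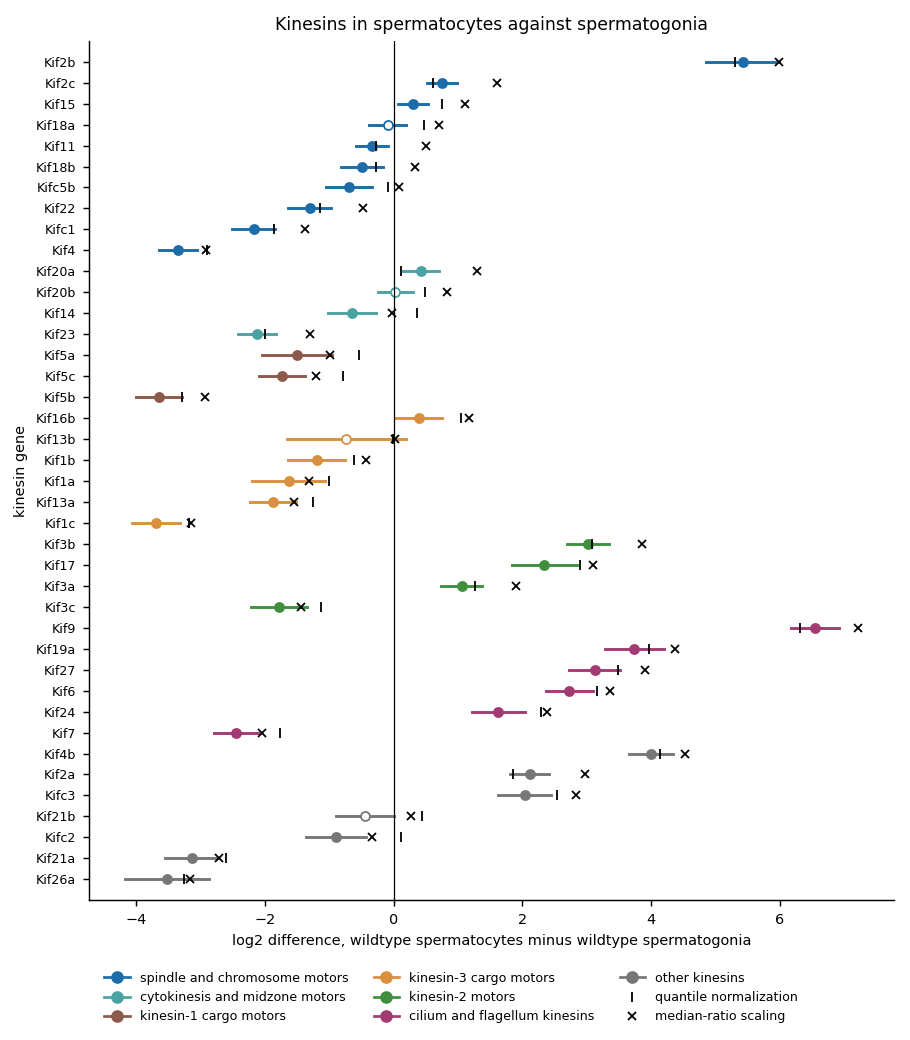
Log2 difference of each tested kinesin between wildtype spermatocytes (n = 3) and wildtype spermatogonia (n = 2), with 95% confidence intervals (lines); filled points passed an adjusted p of 0.05. Vertical ticks and crosses give the same difference under quantile and median-ratio scaling, which carry Kif11, Kif18b and other points near 0 across it, while Kif9 and Kif2b stay farthest right.

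Kinesins of cilia and flagella were higher in spermatocytes in 5 of 6 cases. Kif9, a motor of the moving axoneme, read 0.467 and 0.548 FPKM in wildtype spermatogonia and 143, 146 and 131 in wildtype spermatocytes. It rose by 6.55 ± 0.17 (SE; limma, adjusted p = 3.24e-14), the largest difference in the family. Knockout spermatocytes read 136, 118 and 125. Kif19a, which trims microtubules at the ciliary tip, rose from 0.350 and 0.517 to 21.2, 19.3 and 14.4 FPKM (3.74 ± 0.22, SE; limma, adjusted p = 1.97e-10). Kif27, a relative of the fly protein Costal-2, rose from 2.36 and 3.58 to 36.4, 38.3 and 26.2 FPKM (3.12 ± 0.19, SE; limma, adjusted p = 2.83e-10). None of these 3 overlapped between the cell types. Kif6, another kinesin-9, rose by 2.73 ± 0.17 (SE) and Kif24, a kinesin-13 that restrains cilium growth at the centriole, by 1.63 ± 0.19 (SE). Kif7, which sits at the tip of the primary cilium and serves Hedgehog signalling, was the exception. It fell from 5.55 and 6.35 FPKM to 0.207, 0.292 and 0.310 (-2.45 ± 0.16, SE; limma, adjusted p = 9.07e-10). Markers of spermatids, the cells that grow the flagellum, summed to 6.67 and 9.57 in the same spermatogonia and 2125 to 3965 in the same spermatocytes, and their part in these rises was not tested.

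The Kif9 promoter (RefSeq, GRCm38.p6, chr9:110476708-110477007, plus strand, 250 bases before to 50 after the first of its starts) is shown because it holds GTTGCC, a core of the X-box bound by RFX factors, in capitals.
Kif9: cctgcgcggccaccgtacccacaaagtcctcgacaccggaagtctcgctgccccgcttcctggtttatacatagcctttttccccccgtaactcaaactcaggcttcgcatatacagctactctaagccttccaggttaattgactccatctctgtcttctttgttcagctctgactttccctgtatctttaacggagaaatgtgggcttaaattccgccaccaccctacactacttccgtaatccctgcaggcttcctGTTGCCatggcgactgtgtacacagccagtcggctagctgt

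Kinesin-2 motors, which carry cargo up the cilium, had 3 of 4 higher. Kif3b read 8.31 and 7.20 FPKM in wildtype spermatogonia and 77.4, 72.1 and 61.4 in wildtype spermatocytes (3.02 ± 0.15, SE; limma, adjusted p = 4.20e-11). Its partner Kif3a rose from 9.28 and 12.2 to 22.3, 22.4 and 25.1 FPKM (1.06 ± 0.15, SE; limma, adjusted p = 7.17e-06). Kifap3, the subunit of that motor without a motor domain, rose by 2.21 ± 0.17 (SE). Kif3c, the other partner of Kif3a, went the opposite way. It fell from 3.12 and 2.95 to 0.101, 0.181 and 0.260 FPKM (-1.78 ± 0.20, SE; limma, adjusted p = 6.75e-07). Kif17, the homodimeric kinesin-2, which in mouse spermatids also moves the CREM coactivator ACT, rose from 1.82 and 3.02 to 16.7, 17.5 and 14.2 FPKM (2.34 ± 0.24, SE; limma, adjusted p = 1.50e-07). None of these 4 kinesins overlapped between the cell types.

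The Kif17 promoter (chr4:138262001-138262300, plus strand, GRCm38.p6) is shown because it was 1 of 3 kinesin promoters with a full cAMP response element, TGACGTCA, the site CREM binds, and it also holds GTTGCC. Both are in capitals.
Kif17: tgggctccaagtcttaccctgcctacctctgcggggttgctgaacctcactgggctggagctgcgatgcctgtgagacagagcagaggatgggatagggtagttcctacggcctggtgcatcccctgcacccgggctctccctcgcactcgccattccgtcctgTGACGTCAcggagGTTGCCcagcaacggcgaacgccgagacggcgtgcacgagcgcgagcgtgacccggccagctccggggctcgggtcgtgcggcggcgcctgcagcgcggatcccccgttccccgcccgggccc

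Spindle and chromosome motors gave 3 higher and 6 lower of 10, and the direction of some depended on the scaling. Kif4, a chromokinesin encoded on the X chromosome, fell from 12.3 and 11.5 FPKM in wildtype spermatogonia to 0.186, 0.385 and 0.235 in wildtype spermatocytes (-3.35 ± 0.14, SE; limma, adjusted p = 5.64e-12). The symbol Kif4b, counted with the other kinesins, rose from 0.0310 and 0.0172 to 16.6, 16.6 and 12.9 FPKM (3.99 ± 0.16, SE; limma, adjusted p = 3.27e-12). In RefSeq, Kif4b is a synonym of Kif4-ps, a transcribed pseudogene with 1 exon on chromosome 12, and Kif4 has 30 exons. The 2 transcripts were 80.2% identical over 3658 aligned bases, so how reads were split between them is uncertain. In the cultures Kif4 read 11.1 to 13.7 FPKM and Kif4b at most 0.0810. Kif4 was thus the higher of the pair in spermatogonia and cultures, and Kif4b in spermatocytes. Of 477 X-linked genes tested, 418 (87.6%) were lower in wildtype spermatocytes and 44 higher, with a median difference of -2.65.

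Kif2a, Kif2b and Kif2c, kinesin-13 genes whose proteins dismantle microtubule ends, all rose. Kif2b, a gene of 1 exon, read 0.0261 and 0.0869 FPKM in wildtype spermatogonia and 44.8, 43.4 and 44.6 in wildtype spermatocytes (5.42 ± 0.26, SE; limma, adjusted p = 3.08e-11). Kif2a rose from 16.9 and 18.7 to 82.3, 82.7 and 75.9 FPKM (2.11 ± 0.14, SE; limma, adjusted p = 1.13e-09), and Kif2c rose by 0.75 ± 0.11 (SE). The 2 cell types did not overlap for Kif2a, Kif2b or Kif2c. Aligned transcripts of Kif2a and Kif2b were 70.9% identical over 1204 bases.

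**Figure D3:**
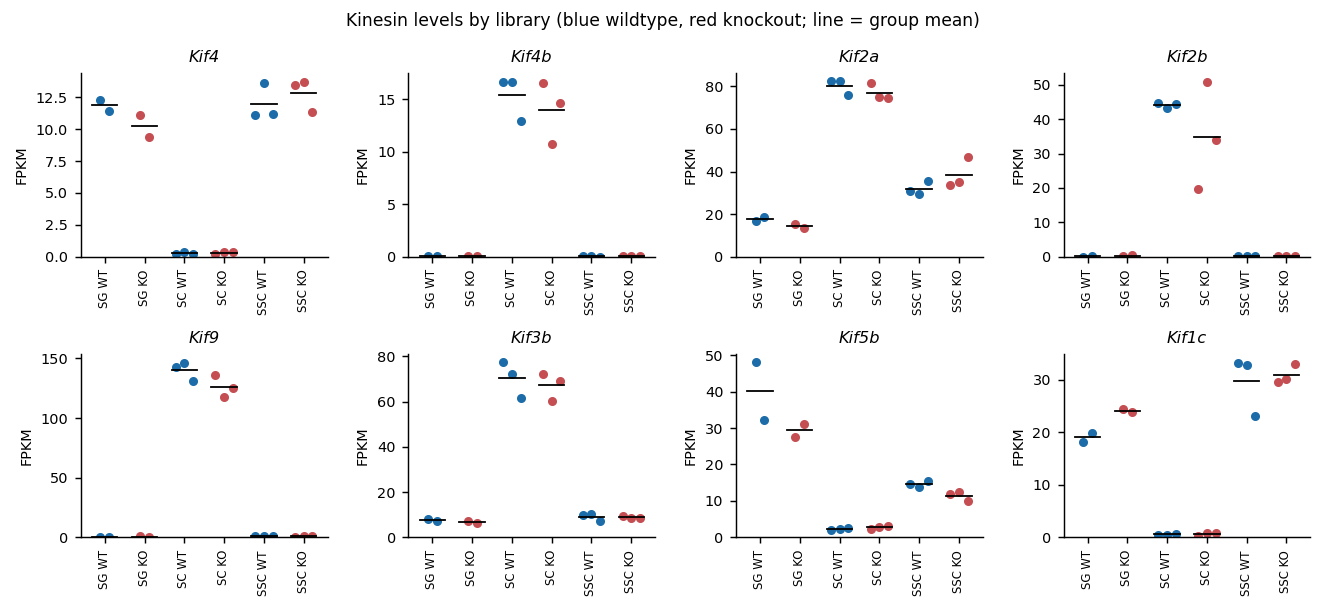
FPKM of 8 kinesins in each library (points; blue wildtype, red knockout; black lines are group means; linear axes from 0). Kif4 and Kif4b exchange places in spermatocytes, Kif2b and Kif9 are near 0 outside spermatocytes, and Kif5b and Kif1c are lowest within them.

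Among the other spindle motors, Kifc1, a minus-end motor that gathers spindle poles, fell from 29.1 and 24.9 FPKM to 5.06, 4.64 and 5.94 (-2.17 ± 0.16, SE; limma, adjusted p = 2.94e-09). Its near copy Kifc5b was also called lower (-0.69 ± 0.17, SE). They were 97.9% identical over 2326 aligned bases, so both values are uncertain, and Kifc5b was not called under either other scaling, at -0.087 with quantile normalization and 0.092 with median-ratio scaling. No direction is given for it. Kif22, which pushes chromosomes to the metaphase plate, fell from 27.5 and 25.9 to 10.3, 9.11 and 11.3 FPKM (-1.30 ± 0.15, SE; limma, adjusted p = 9.95e-07). Kif11, the motor that pushes spindle poles apart, read 21.8 and 22.2 FPKM in spermatogonia and 17.3, 16.7 and 17.8 in spermatocytes. That was called lower as deposited (-0.34 ± 0.12, SE) but higher with median-ratio scaling (0.51, adjusted p = 0.00189). Kif18b, which limits astral microtubules, turned in the same way, from -0.49 ± 0.15 (SE) to 0.34 (adjusted p = 0.0400), and no direction is given for either.

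Kif23, the kinesin of the centralspindlin complex that marks the division plane, fell from 39.1 and 34.7 FPKM to 6.95, 8.90 and 7.35 (-2.12 ± 0.14, SE; limma, adjusted p = 9.87e-10). Kif20a, another cytokinesis motor, read 34.6 and 34.8 in spermatogonia and 45.7, 48.7 and 46.5 in spermatocytes, and its rise of 0.43 ± 0.13 (SE) was not called with quantile normalization. Kif20b did not pass the test (0.03 ± 0.13, SE). Kif14, needed for abscission, was called lower as deposited (-0.64 ± 0.17, SE) and higher with quantile normalization (0.37, adjusted p = 0.0496).

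The Kif23 promoter (chr9:61946750-61947049, minus strand, GRCm38.p6) is shown for its cell cycle elements near the start. These are the CHR, spelled TTTGAA, and a box that reads CCAAT on the other strand and ATTGG on this one. The promoter also holds a copy of GTTGCC, and all of these letters are in capitals.
Kif23: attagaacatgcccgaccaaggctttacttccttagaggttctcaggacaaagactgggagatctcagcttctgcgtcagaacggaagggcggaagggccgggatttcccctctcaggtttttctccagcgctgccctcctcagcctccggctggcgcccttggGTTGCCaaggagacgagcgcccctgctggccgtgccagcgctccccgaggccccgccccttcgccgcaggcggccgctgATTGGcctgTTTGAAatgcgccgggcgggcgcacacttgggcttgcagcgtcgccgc

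Cargo motors were mostly lower. The 3 kinesin-1 heavy chains, which carry organelles and vesicles with the help of light chains, all fell. Kif5b fell from 48.0 and 32.1 FPKM to 1.97, 2.23 and 2.51 (-3.64 ± 0.16, SE; limma, adjusted p = 1.20e-11), and Kif5c changed by -1.73 ± 0.17 (SE). The FPKM of the 3 genes together went from 11.3% of the family's sum in wildtype spermatogonia to 0.541% in wildtype spermatocytes. Of the light chains, Klc1, Klc3 and Klc4 were called lower and Klc2 higher, at 64.1, 58.2 and 50.7 FPKM in spermatocytes against 15.7 and 15.6. Kinesin-3 vesicle motors had 4 of 6 lower. Kif1c, which moves vesicles and integrins, fell from 18.2 and 19.9 to 0.536, 0.496 and 0.654 FPKM (-3.68 ± 0.17, SE; limma, adjusted p = 2.04e-11), the largest fall of the family. Kif13a changed by -1.87 ± 0.17 and Kif1a, the carrier of synaptic vesicle precursors in neurons, by -1.62 ± 0.26 (SE). Kif1b changed by -1.20 ± 0.20 (SE), a call lost with median-ratio scaling (adjusted p = 0.0761). Kif16b, a motor of early endosomes, was the exception and rose by 0.39 ± 0.17 (SE; limma, adjusted p = 0.0440).

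Of the remaining kinesins, Kifc3, a minus-end motor of cell junctions and the Golgi, rose from 3.59 and 4.60 to 19.9, 18.7 and 20.8 FPKM (2.03 ± 0.20, SE; limma, adjusted p = 8.52e-08). Kif26a, a kinesin without motor activity, fell from 12.1 and 10.9 to 0.0832, 0.164 and 0.0249 FPKM (-3.52 ± 0.30, SE; limma, adjusted p = 2.38e-08). Kif21a, which curbs microtubule growth at the cell cortex, fell from 12.4 and 8.30 to 0.170, 0.362 and 0.292 FPKM (-3.13 ± 0.19, SE; limma, adjusted p = 4.50e-10). No library overlapped between the cell types for these 3 genes. Markers of somatic cells differed between the same libraries. Sertoli markers summed to 838 and 586 in wildtype spermatogonia and 6.00 to 10.9 in wildtype spermatocytes, while the 7 fibroblast markers summed to 488 and 621, against 2.48 to 4.86. The part of these cells in the lower kinesins was not tested.

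Genes that work with kinesins were taken from lists. Of 13 genes of cytoplasmic dynein and dynactin, the minus-end motor, 8 were higher and 3 lower in wildtype spermatocytes. The retrograde ciliary dynein gene Dync2h1 rose by 2.78 ± 0.23 (SE) and the dynactin gene Dctn2 by 2.33 ± 0.10 (SE). Of 10 cargo and mitochondrial adaptors, 4 were higher and 6 lower, and the scaffold gene Mapk8ip2 rose from 0.113 and 0.250 to 60.9, 53.4 and 51.1 FPKM. Of 5 chromosomal passenger genes 3 were higher and 2 lower, of 12 spindle assembly and kinetochore genes 3 and 4, of 5 centralspindlin and midzone genes 1 and 2, and of 8 cyclins and proliferation genes 1 and 4. These partner counts are on the deposited scale. Cenpe did not pass the test (0.22 ± 0.17, SE; limma, adjusted p = 0.247).

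The second comparison set cultured stem cells against isolated spermatogonia, both from pups. Of 38 kinesins tested in wildtype libraries, 16 were higher in culture (30.5% of all genes) and 5 lower (22.6%). The counts in knockout libraries were also 16 (32.2%) and 5 (22.4%). Kif9, Kif19a and Kif26b entered these tests only through the cultures, where they were higher. Their part in the counts is therefore description only. Of the higher kinesins 14 were the same in both genotypes (87.5% of each list), and of the lower ones 2 (40% of each list), Kif5b and Kif26a. How many of all genes were shared in this way was not counted. Without wildtype spermatogonia replicate 1, the wildtype count of higher kinesins was 10. Spindle and chromosome motors had 5 of 9 higher and none lower in culture. Among them was Kif18a, which aligns chromosomes, at 8.63 and 8.48 against 12.6, 14.3 and 16.6 FPKM (0.69 ± 0.14, SE; limma, adjusted p = 0.000628). Of these 5, Kif11 was not called under either other scaling. On the partner lists, 3 of 12 spindle assembly genes and 3 of 8 cyclin and proliferation genes were higher and none lower, and Cenpe was higher (0.81 ± 0.17, SE; limma, adjusted p = 0.00124).

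Larger differences between culture and spermatogonia were few. Kif3c read 3.12 and 2.95 FPKM in wildtype spermatogonia and 10.4, 13.4 and 9.68 in wildtype cultures (1.58 ± 0.20, SE; limma, adjusted p = 1.42e-05), and 11.1, 14.0 and 20.5 in knockout cultures. All 6 cultures lay above all 4 spermatogonia libraries. Kif5b fell from 48.0 and 32.1 to 14.7, 13.9 and 15.6 FPKM (-1.36 ± 0.16, SE; limma, adjusted p = 7.36e-06). Kif26a changed by -1.55 ± 0.30 (SE; limma, adjusted p = 0.000601) and Kif21a by -1.14 ± 0.19 (SE; limma, adjusted p = 0.000178). Kif26b, a relative of Kif26a, was higher in culture (1.27 ± 0.20, SE), at 2.74, 2.08 and 1.11 FPKM against 0.134 and 0.272. It entered the test only through the cultures, where it was high. Sertoli markers summed to 838 and 586 in wildtype spermatogonia and 8.48 to 10.3 in wildtype cultures, while macrophage markers summed to 3.13 and 4.60, against 149 to 175. Their part in these differences was not tested.

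Wildtype spermatocytes against wildtype cultures shared the spermatocyte libraries with the first comparison, so its values only stand beside those. Of 41 kinesins tested, 13 were higher in spermatocytes (33.2% of all genes) and 23 lower (56.9%), with kinesin and all-gene medians of -0.67 and -0.77. With quantile normalization the counts were 15 and 19, with median-ratio scaling 18 and 17, and the all-gene medians became -0.37 and 0.091. In the knockout libraries 13 were higher (33.3%) and 25 lower (55.9%), and all of the wildtype calls were among them. Most genes were called in each genotype here too, and how many of all genes were shared was not counted. Kif9 again differed most (6.09 ± 0.16, SE; limma, adjusted p = 1.39e-14). Kif2b differed by 5.34 ± 0.24 and Kif4b by 3.98 ± 0.14 (SE), and both entered the test only through spermatocytes. The largest falls were those of Kif1c (-4.28 ± 0.16, SE), Kif3c (-3.35 ± 0.18, SE) and Kif4 (-3.35 ± 0.13, SE). Kif6 too entered the test only through spermatocytes. Kif1a, Kif1c, Kif3c, Kif4, Kif5a, Kif5c, Kif7, Kif13a, Kif21a, Kif26a and Kif26b entered it only through the cultures. The values of all these genes, and their part in the counts, are therefore description only.

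The third comparison was knockout against wildtype in each cell type. In spermatogonia 35 kinesins were tested. None was higher, where 0.917% of all genes were, and 2 were lower, where 5.76% of all genes were, so the kinesin share was near that of all genes. Over all genes that is 110 higher and 691 lower, and with quantile normalization it was 430 and 647. At an unadjusted p under 0.05, 3 kinesins were higher and 4 lower. Kif23 read 39.1 and 34.7 FPKM in wildtype and 24.5 and 20.1 in knockout spermatogonia (-0.70 ± 0.15, SE; limma, adjusted p = 0.0113). Kif21a read 12.4 and 8.30 FPKM in wildtype and 4.81 and 5.80 in knockout spermatogonia (-0.83 ± 0.21, SE; limma, adjusted p = 0.0293). Neither call held in all settings. Without wildtype replicate 1 the adjusted p was 0.171 for Kif23 and 0.432 for Kif21a, and without knockout replicate 2 it was 0.128 and 0.0783. The wildtype spermatogonia libraries are also those of the comparison with wildtype cultures, where both genes were among the 5 lower ones.

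Downward, Kifc1 came nearest without passing in spermatogonia (-0.48 ± 0.17, SE; limma, adjusted p = 0.121). Upward, it was Kif17 (0.69 ± 0.26, SE; limma, adjusted p = 0.139), followed by Kifc2 (0.60 ± 0.24, SE; limma, adjusted p = 0.168) and Kif27 (0.45 ± 0.20, SE; limma, adjusted p = 0.233). Kif17 read 1.82 and 3.02 FPKM in wildtype and 4.91 and 3.99 in knockout spermatogonia. Kifc2, a minus-end motor, read 2.60 and 3.35 against 5.41 and 4.65. Kif17 and Kifc2 passed with quantile normalization (limma, adjusted p = 0.0204 and 0.0432) and with only the spermatogonia in the fit (adjusted p = 0.0423 and 0.0436). Neither passed under any other setting run. Without wildtype replicate 1 the difference was 0.43 for Kif17 (adjusted p = 0.821) and 0.47 for Kifc2 (adjusted p = 0.766).

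Partners of Kif23 and other listed genes were read in the same libraries. Racgap1, the other protein of centralspindlin, was at 43.6 and 42.9 FPKM in wildtype and 32.2 and 27.3 in knockout spermatogonia (-0.53 ± 0.14, SE; limma, adjusted p = 0.0311), and it was the 1 gene called of 5 on the midzone list. Cdk1, the mitotic kinase, fell from 17.1 and 17.0 to 10.3 and 7.72 FPKM (-0.86 ± 0.20, SE; limma, adjusted p = 0.0179), the 1 called of 8 on its list. Arl8b, a small GTPase that links lysosomes to kinesin-1, fell from 23.7 and 19.2 to 14.7 and 12.7 FPKM (-0.61 ± 0.15, SE; limma, adjusted p = 0.0263), the 1 called of 9 tested adaptors. No gene was called of the 5 light chain and KAP3 genes, the 4 passenger genes tested, the 12 spindle assembly genes or the 13 dynein and dynactin genes. Stromal markers were lower in the same knockout libraries. Fibroblast markers summed to 488 and 621 in wildtype and 161 and 178 in knockout libraries, and the 6 peritubular myoid markers to 126 and 173 against 29.6 and 25.3. Sertoli markers summed to 838 and 586 against 465 and 564. The 6 markers of differentiating spermatogonia went the other way, at 169 and 208 against 322 and 244, with 1 called higher. So did the 10 spermatocyte markers, at 101 and 110 against 170 and 136, with 1 of 8 tested called higher. Markers of undifferentiated spermatogonia overlapped, at 119 and 133 against 141 and 113. The part of all these cells in the lower Kif23 and Kif21a was not tested.

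**Figure D4:**
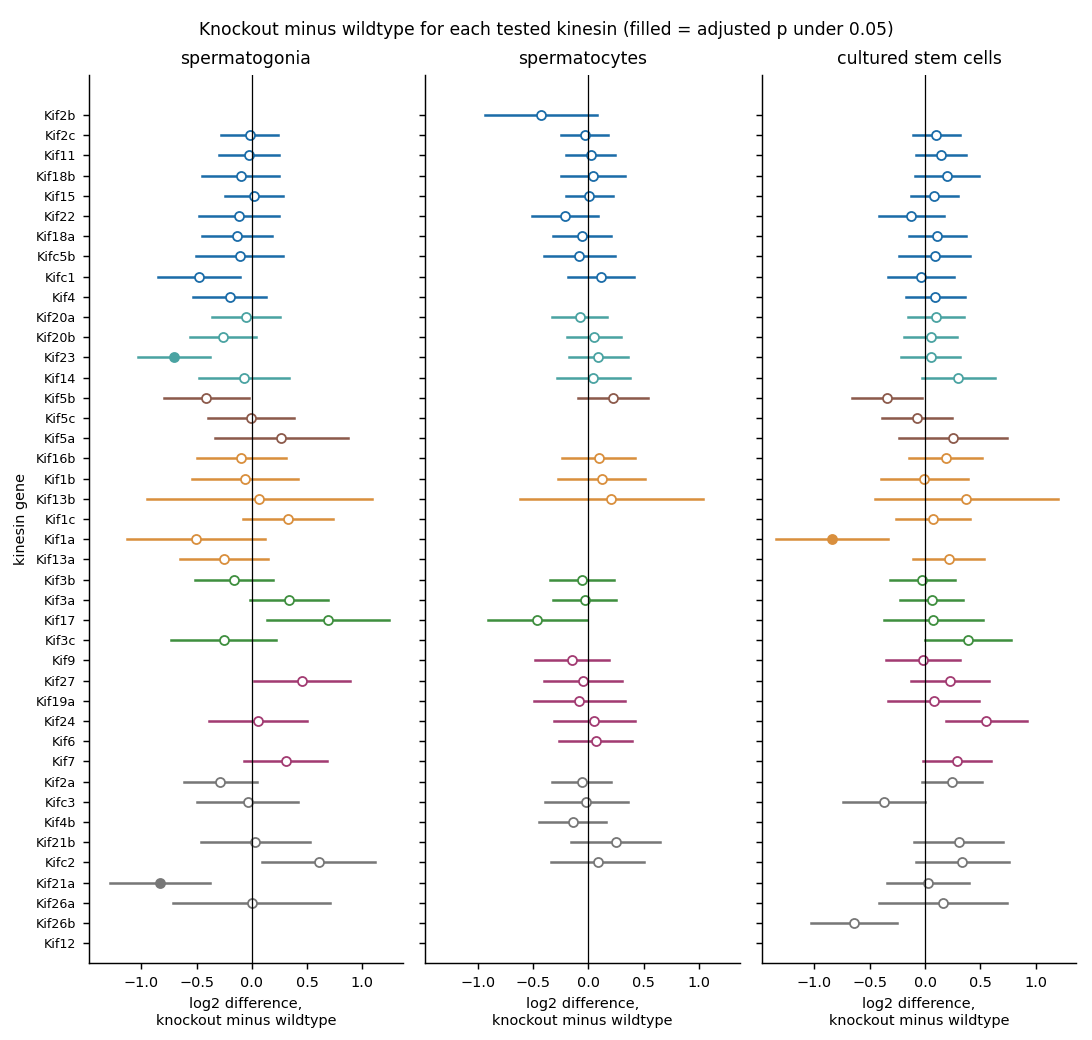
Log2 difference between knockout and wildtype for each kinesin tested in each cell type, with 95% confidence intervals, coloured by role as in the heat map; filled points passed an adjusted p of 0.05, and a missing point means that the gene was too low to be tested there. Only Kif23 and Kif21a in spermatogonia and Kif1a in cultures are filled, and no point in spermatocytes is.

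In spermatocytes 30 kinesins were tested, and limma called none higher (0% of all genes) or lower (0.00974%). At an unadjusted p under 0.05 none was higher and 1 was lower. The named kinesins nearest to a call were Kif17, Kif2b and Kif22 downward (-0.46 ± 0.21, -0.43 ± 0.24 and -0.21 ± 0.14, SE) and Kif21b, Kif5b and Kifc1 upward (0.25 ± 0.19, 0.22 ± 0.15 and 0.11 ± 0.14, SE), all at an adjusted p of 0.999. The 95% intervals of the 30 kinesins lay between -0.94 and 1.04, so smaller differences were not all detectable here. Kif2b read 44.8, 43.4 and 44.6 FPKM in wildtype and 19.8, 50.8 and 34.1 in knockout spermatocytes, and Kif17 16.7, 17.5 and 14.2 against 7.42, 12.7 and 15.5. Knockout replicate 1 was the low library for both. The 8 spermatid markers summed to 2125, 3965 and 2481 in wildtype and 2073, 1375 and 4831 in knockout spermatocytes, in order of replicate. Among the knockout libraries their sum was lowest in replicate 2, where Kif2b was highest, and highest in replicate 3, where Kif17 was highest. Without knockout replicate 1 the differences were -0.085 for Kif2b and -0.18 for Kif17. Without knockout replicate 2 they were -0.74 for Kif2b and -0.53 for Kif17. The part of spermatids in these values was not tested.

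In the cultures 38 kinesins were tested, with none higher (0.324% of all genes) and 1 lower (5.84%). At an unadjusted p under 0.05, 1 was higher and 3 lower. Kif1a read 2.72, 3.18 and 0.800 FPKM in wildtype and 0.983, 0.708 and 0.437 in knockout cultures (-0.84 ± 0.24, SE; limma, adjusted p = 0.0490). The groups overlapped, since wildtype replicate 3 lay below knockout replicate 1. Only 2 libraries, both wildtype, reached an FPKM of 1, so the gene was tested through the group in which it was high, and leaving out either of these left it untested. Kif26b, at 2.74, 2.08 and 1.11 against 0.968, 1.26 and 0.432 FPKM, just missed the threshold, and its groups overlapped (-0.64 ± 0.18, SE; limma, adjusted p = 0.0524). Kif5b did not pass (-0.34 ± 0.15, SE; limma, adjusted p = 0.245).

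Upward, Kif24 came nearest in the cultures (0.55 ± 0.17, SE; limma, adjusted p = 0.0757), at 5.87, 5.91 and 3.63 FPKM in wildtype and 7.16, 9.28 and 7.32 in knockout. Kif3c (0.39 ± 0.18, SE; limma, adjusted p = 0.301) and Kif7 (0.29 ± 0.14, SE; limma, adjusted p = 0.340) followed. Wildtype replicate 3 stood apart from its group. Its transcripts of 6000 bases or more had a median of -0.42 on the log2 scale against the mean of the other libraries of its group. Those under 2000 bases had 0.52. Without that library the difference was 0.36 for Kif24 (adjusted p = 0.269), and it was -1.22 for Kif1a (8206 bases) and -0.87 for Kif26b (13749 bases). The last 2 are given without a p, since both genes entered the test through the wildtype group, in which they were high. Of the listed partners, Arl8a, the GTPase close to Arl8b, was the 1 called in cultures, at 14.0, 13.7 and 11.9 FPKM in wildtype and 7.55, 8.53 and 6.66 in knockout (-0.73 ± 0.17, SE; limma, adjusted p = 0.0186). Fibroblast markers summed to 323 to 543 in wildtype and 99.4 to 192 in knockout cultures, with 6 of 7 called lower. The peritubular myoid markers summed to 67.5 to 124 and 12.1 to 37.9, with 3 of 4 tested called lower, and macrophage markers to 149 to 175 and 90.7 to 130.1, with 1 of 4 tested called lower. None of these 3 sums overlapped between the genotypes. The 4 neuron markers in the files summed to 5.79 to 10.5 and 6.29 to 8.23. The part of other cells was not tested.

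**Figure D5:**
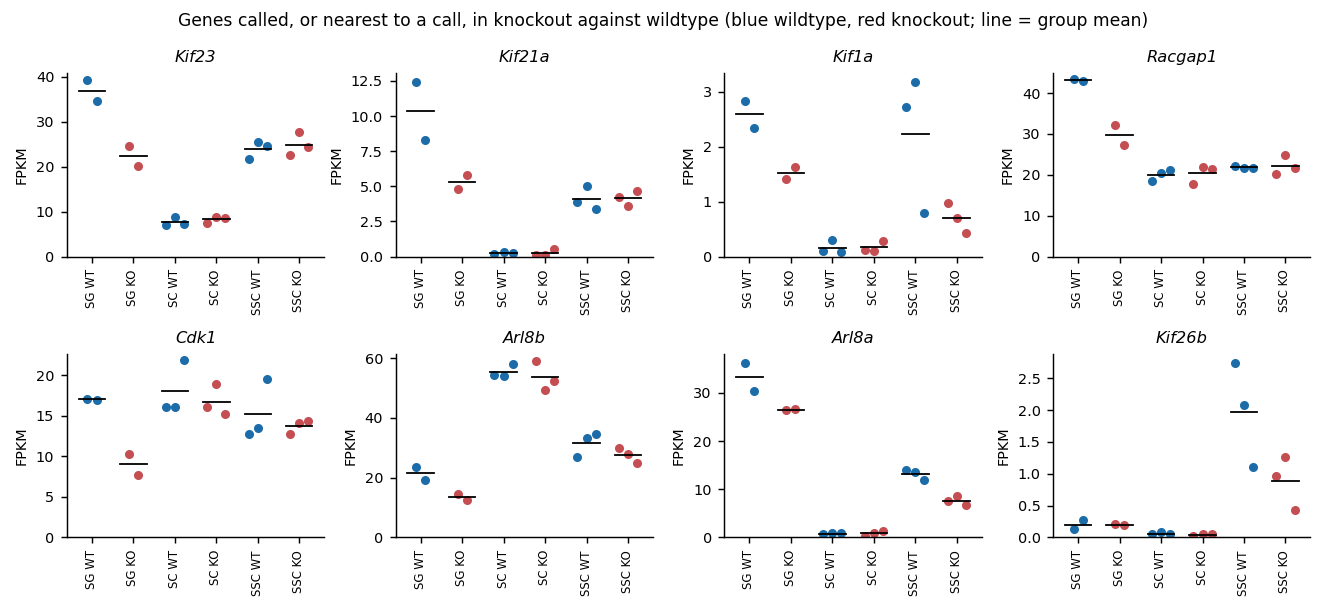
FPKM per library of the 3 kinesins and 4 partner genes called in knockout against wildtype, and of Kif26b, which just missed (points; blue wildtype, red knockout; black lines are group means; linear axes from 0). Kif23, Racgap1, Cdk1 and Arl8b lie lower in knockout than in wildtype spermatogonia (2 libraries each), while Kif1a overlaps between the genotypes in cultures.

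Whether the knockout difference itself depended on the cell type was tested for all kinesins. Limma called no kinesin between spermatogonia and spermatocytes (2.14% of all genes), between spermatogonia and cultures (1.81%) or between spermatocytes and cultures (2.02%). At an unadjusted p under 0.05, 1 was higher and 4 lower in each of the first 2, and 3 were higher and none lower in the last. Kif23 came nearest, with a knockout difference in spermatogonia minus that in spermatocytes of -0.79 ± 0.20 (SE; limma, adjusted p = 0.0525), and minus that in cultures of -0.76 ± 0.20 (SE; limma, adjusted p = 0.0723). Its level was 8.27 ± 0.745 FPKM (SD, n = 3) in knockout and 7.73 ± 1.03 (SD, n = 3) in wildtype spermatocytes, and 24.8 ± 2.62 and 23.9 ± 1.96 (SD, n = 3 each) in cultures.

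A microRNA pairs through its seed, bases 2 to 8, with sites in 3′ UTRs. The 2 arms of miR-202 (RefSeq, GRCm38.p6, chr7:139957695-139957716 and chr7:139957732-139957752, minus strand) are shown with the seed in capitals, followed by the matching sites in kinesin UTRs (GENCODE M21), since these are the members that hold a seed match to the deleted microRNA.
miR-202-3p: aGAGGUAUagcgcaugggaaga
miR-202-5p: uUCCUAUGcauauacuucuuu
Kif1b: tcactcctctgtcaATACCTCacttcacc
Kif2a: ctttgcgtgcatgcATACCTCatgagtga
Kif20b: ttatgatatattaaATACCTCtgtataga
Kif26b site 1: tgaagaactctgtaCATAGGAccgctagc
Kif26b site 2: tttcctttgtttgcCATAGGAaagaaagg
Capitals in the sites mark the match to the 3p seed in Kif1b, Kif2a and Kif20b and to the 5p seed in Kif26b. Of 41 kinesins with a UTR, 3 held a 3p match and 1 a 5p match. The share of all genes with a match was not counted. None of these 4 was called higher in a knockout group, but such calls were rare over all genes. They made up 0.917% in spermatogonia, 0% in spermatocytes and 0.324% in cultures. Kif26b was too low to be tested in spermatogonia and spermatocytes, and in cultures it differed by -0.64 without passing. The other members could be tested in all 3 cell types. In spermatogonia Kif1b differed by -0.06 ± 0.22, Kif2a by -0.29 ± 0.15 and Kif20b by -0.26 ± 0.14 (SE). In spermatocytes they differed by 0.12 ± 0.18, -0.06 ± 0.13 and 0.05 ± 0.11 (SE), and in cultures by -0.01 ± 0.18, 0.25 ± 0.13 and 0.05 ± 0.11 (SE). None of these 9 differences of Kif1b, Kif2a and Kif20b passed the test. That of Kif1b turned positive with quantile normalization in spermatogonia (0.036) and with both other scalings in cultures (0.031 and 0.029), and a match does not show that a site is used.

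Promoter motifs were counted on both strands in the window of 300 bases for the 33 kinesins with a RefSeq promoter. TTTGAA, the CHR of genes expressed at mitosis, was in 14 of the 33, where 17.9% of all 32851 promoters hold it. It was in 11 of the 13 spindle and cytokinesis kinesins and 3 of the other 20. CCAAT was in 16, against 37.4% of all promoters, with 9 of the 13 and 7 of the 20. GTTGCC was in 10, against 12.5% of all, with 2 of the 13 and 8 of the 20, among them Kif9, Kif16b, Kif17, Kif24, Kif2a and Kif3a, which were called higher in spermatocytes, and Kif1a and Kif3c, which were called lower. TGACGTCA was in 3 (Kif17, Kif18a and Kif5c), against 1.79% of all. No motif overlapped another in the promoters printed above, and these counts describe letters in the windows.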

How the data were processed

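RNA of 16 libraries from spermatogonia, spermatocytes and cultured stem cells of wildtype and miR-202 knockout mice had been sequenced. The deposited values are FPKM, which the authors made with TopHat2 2.0.6 and Cufflinks 2.0.2 on mm9, per the submitters' processing notes. No counts were given, so depth is unknown, and no interval for counting error can be set. Symbols that occurred more than once (259 of 22552) were left out of the 23021 rows. Differences were fitted with limma 3.58.1 (R 4.3.3, mean-variance trend) on log2(FPKM + 1), in 1 model of 14480 genes and 16 libraries, which left 10 degrees of freedom. Testing required an FPKM of 1 in 2 libraries of a compared cell type, with Benjamini-Hochberg adjustment over all genes tested. The fit was tested on simulated data. Kinesins too low to be tested numbered 7 in spermatogonia, 12 in spermatocytes and 4 in cultures for knockout against wildtype. Sums, motif counts and figures were made with Python 3.11.15. Named kinesins were the highest 8 of each wildtype group, up to 12 called per direction with a log2 difference of at least 1 and a group mean of at least 5 FPKM, and, where fewer than 3 were called, the 3 with the smallest p per direction. Others were chosen after their values were seen. The members and lists were chosen with earlier results of these data known. Sequences and coordinates come from RefSeq and GENCODE M21 (GRCm38.p6), another build than that of the files. Alternatives were a pseudocount of 0.1, no filter, quantile and median-ratio scaling, only the groups compared, a replicate block and leaving out each library.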

Additional observations from a re-analysis of the deposited data

How the results depend on the processing

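Of the calls picked by the naming rule, 21 of 22 in wildtype spermatocytes against spermatogonia, 4 of 4 in cultures against spermatogonia and 19 of 19 in spermatocytes against cultures held under all settings run, and 0 of 3 in knockout against wildtype did. For cell types that rule took only large differences, which favours calls that hold. Quantile and median-ratio scaling kept 31 and 30 of all 36 kinesin calls in the first, 19 and 18 of 21 in the second and 31 and 30 of 36 in the last of these cell type comparisons. For knockout against wildtype spermatogonia, the count of higher kinesins went from 0 to 2 with quantile normalization and to 2 with only the groups compared. The count of lower ones went from 2 to 1 with a pseudocount of 0.1, no filter, median-ratio scaling or the replicate block, and to 0 to 2 when 1 library was left out. In cultures, quantile normalization gave 1 higher, and the count of lower kinesins went from 1 to 0 with a pseudocount of 0.1, no filter, quantile normalization, median-ratio scaling or only the groups compared, to 2 with the replicate block, and to 0 to 2 with 1 library left out. Wildtype cultures against spermatogonia had 10 to 19 higher kinesins with 1 library left out. Knockout cultures against spermatogonia had 3 lower with no filter and 2 to 5 with 1 library left out, and knockout spermatocytes against cultures had 16 lower with median-ratio scaling. For the difference of the knockout effect, quantile normalization gave 1 higher and 1 lower between spermatogonia and spermatocytes and 1 lower between spermatogonia and cultures, and leaving out 1 library gave 0 to 1 in either direction for the first and 0 to 2 higher between spermatocytes and cultures. The cause of these changes was not tested. Over all genes, knockout against wildtype spermatogonia went from 110 higher and 691 lower to 430 and 647 with quantile normalization and to 26 and 165 with a pseudocount of 0.1, and in cultures from 39 and 704 to 11 and 388 with that pseudocount and to 4 and 251 with only the groups compared. Same-numbered libraries of the genotypes did not deviate together throughout (r = -0.17 in spermatogonia, 0.26, -0.34 and -0.17 in spermatocytes, and 0.00, -0.06 and 0.23 in cultures). Deviations were taken within groups of 2 or 3 libraries, so this check cannot exclude that the numbers pair them. With the crossed pairing of spermatogonia, 0 kinesins were higher and 2 lower. Kif11, Kif14 and Kif18b turned with the scaling in wildtype spermatocytes against spermatogonia, as given above. The lack of read counts limits what can be said of kinesins near an FPKM of 1.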
